A study of Homo sapiens with 8 samples.

Results

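The genes described here encode the 8 subunits of the cytosolic chaperonin CCT (TCP1, CCT2, CCT3, CCT4, CCT5, CCT6A, CCT7 and CCT8) and PFDN2 and PFDN6, which encode subunits of its partner prefoldin. They were chosen by symbol, with earlier results of these data known. All 10 had a row among the 25593 rows of the deposited table. Expression was compared in a pair of human acute myeloid leukaemia cell lines. The groups were HL60 with 100 nM cinobufagin for 24 h, untreated HL60, Kasumi-1 with the same dose and time, and untreated Kasumi-1, with 2 RNA-seq libraries in each. HL60 cells are of promyelocytic origin and have extra copies of MYC. The fusion gene RUNX1-RUNX1T1 is present in Kasumi-1. Both were grown in RPMI-1640 with penicillin-streptomycin, HL60 with 10% and Kasumi-1 with 20% fetal bovine serum, so serum and line cannot be told apart. Cinobufagin is a toad venom steroid that binds the Na+/K+-ATPase. No vehicle is named for the untreated cells, and whether a group's libraries came from separate cultures is not stated. P-values here therefore measure the spread between libraries, which may be technical.

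CCT, also called TRiC, is a barrel of stacked rings in which each of the 8 subunits has its own place, and it folds newly made proteins inside a closed cavity with energy from ATP. Its best known clients are actin and tubulin, and it also folds WD-repeat proteins such as CDC20. Prefoldin is a complex of 6 different subunits that holds unfolded actin and tubulin and passes them to CCT. Dividing cells make much of both complexes.

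Values are FPKM, fragments scaled to transcript length and library size, so levels of different genes may be set side by side. A change is the difference in log2(FPKM + 1), cinobufagin minus untreated, tested with limma across the 12511 genes that reached 1 FPKM in 2 or more libraries. A gene is said to rise or fall where the Benjamini-Hochberg adjusted p is under 0.05. FPKM is relative within a library. In these bulk values a lower level in every cell and a smaller share of cells with the transcript cannot be told apart. RUNX1T1 fitted the labels, listed at 0 in the 4 HL60 libraries and between 16.1 and 20.8 FPKM in the 4 Kasumi-1 libraries. MPO, of myeloid granules, stood at 245 FPKM or more in all 8. MPO, ELANE, PRTN3 and AZU1 had been set as markers of HL60, but all 4 were higher in untreated Kasumi-1. Their means there were 6056, 1226, 2203 and 779 FPKM, against 3327, 206, 539 and 332 in untreated HL60. The fit to the labels thus rests on the Kasumi-1 markers RUNX1T1, CD34 and KIT. CD34 was listed at 0 in the 4 HL60 libraries and stood at 43.3 to 61.2 FPKM in Kasumi-1. KIT reached at most 0.995 FPKM in HL60 and stood at 134 to 159 FPKM in Kasumi-1. HBB, of red cells, was listed at 0 throughout, COL1A1, of fibroblasts, reached at most 0.0204 FPKM and CD3E, of T cells, at most 1.15. CD79A, of B cells, reached 3.41 FPKM, and EPCAM, of epithelia, stood at 72.7 to 78.5 FPKM in Kasumi-1 and at no more than 0.0359 in HL60.

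The stretches before the gene's start are shown for CCT3, with the largest fall in HL60, for CCT2, and for TCP1, with a smaller one. The sequences are the 250 bases before the gene's start in RefSeq (build GRCh38.p14), read 5′ to 3′ on the gene's strand. Those of CCT3 (chr1:156338293-156338542, minus strand), CCT2 (chr12:69585209-69585458, plus strand) and TCP1 (chr6:159789603-159789852, minus strand) follow, with motif matches in capitals.
CCT3: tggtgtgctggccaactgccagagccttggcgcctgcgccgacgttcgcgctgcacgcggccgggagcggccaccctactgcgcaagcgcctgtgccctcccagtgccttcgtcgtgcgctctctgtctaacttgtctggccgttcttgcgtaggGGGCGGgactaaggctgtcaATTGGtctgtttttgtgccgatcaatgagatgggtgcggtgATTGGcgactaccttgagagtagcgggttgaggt
CCT2: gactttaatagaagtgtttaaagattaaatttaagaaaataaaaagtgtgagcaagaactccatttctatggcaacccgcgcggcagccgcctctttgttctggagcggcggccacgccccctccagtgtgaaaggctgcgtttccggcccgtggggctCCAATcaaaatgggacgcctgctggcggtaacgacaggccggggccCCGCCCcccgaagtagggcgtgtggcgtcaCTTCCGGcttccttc
TCP1: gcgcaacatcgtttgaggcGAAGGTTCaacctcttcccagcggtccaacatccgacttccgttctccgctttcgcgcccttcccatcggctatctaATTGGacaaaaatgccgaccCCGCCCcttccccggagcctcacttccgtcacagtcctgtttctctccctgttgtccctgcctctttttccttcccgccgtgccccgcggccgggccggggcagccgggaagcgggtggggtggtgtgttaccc

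Motifs were searched on both strands, and positions are those of a match's leftmost base, with −1 next to the start. CCT3 held the CCAAT box CCAAT at −75 and −34 and the GC box GGGCGG at −95. CCT2 held CCAAT at −91, GGGCGG at −45 and the ETS core CCGGAAG at −15. TCP1 held CCAAT at −154, GGGCGG at −134 and the heat shock unit GAANNTTC at −231. No match overlapped another in these windows. Windows that begin at the gene's outer start were at hand for 6 of the 10 members (TCP1, CCT2, CCT3, CCT4, CCT7 and CCT8). Of these 6, CCAAT was in 4, against 33.0% of 27305 windows of the same length over all genes, and GGGCGG in 4, against 42.2%. Unlike the 6, the windows over all genes were not limited to those near a gene's outer start, so the sets are not fully alike. CCT4 and CCT7, which fell as well, held none of the motifs searched. CCGGAAG was in 1 of 6, against 8.78%, and GAANNTTC in 1 of 6, against 5.85%. The other heat shock spacing, TTCNNGAA (6.72% of all windows), and the E-box CACGTG (6.46%), the core bound by MYC and MAX, had no match in the 6. A match describes letters in a window and is not a binding site.

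In HL60, transcripts of all 8 CCT subunits fell with cinobufagin, and so did PFDN6, while PFDN2 was not called. The median log2 change of the 8 CCT genes was −0.90, from −1.48 for CCT3 to −0.40 for CCT5, against a median of −0.01 over all genes tested. These 9 falls and 0 rises among 10 members stand beside 37.6% of all tested genes called lower and 36% called higher in this line. Of the 4 prefoldin genes outside the 10 members, 3 rose and 1 fell in this line. The member counts thus depend on a choice made with earlier results known. The summed FPKM of the 8 CCT genes was 702 and 713 in treated libraries, against 1249 and 1283 in untreated ones, a fall of the mean by 44.1%.

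**Figure D1:**
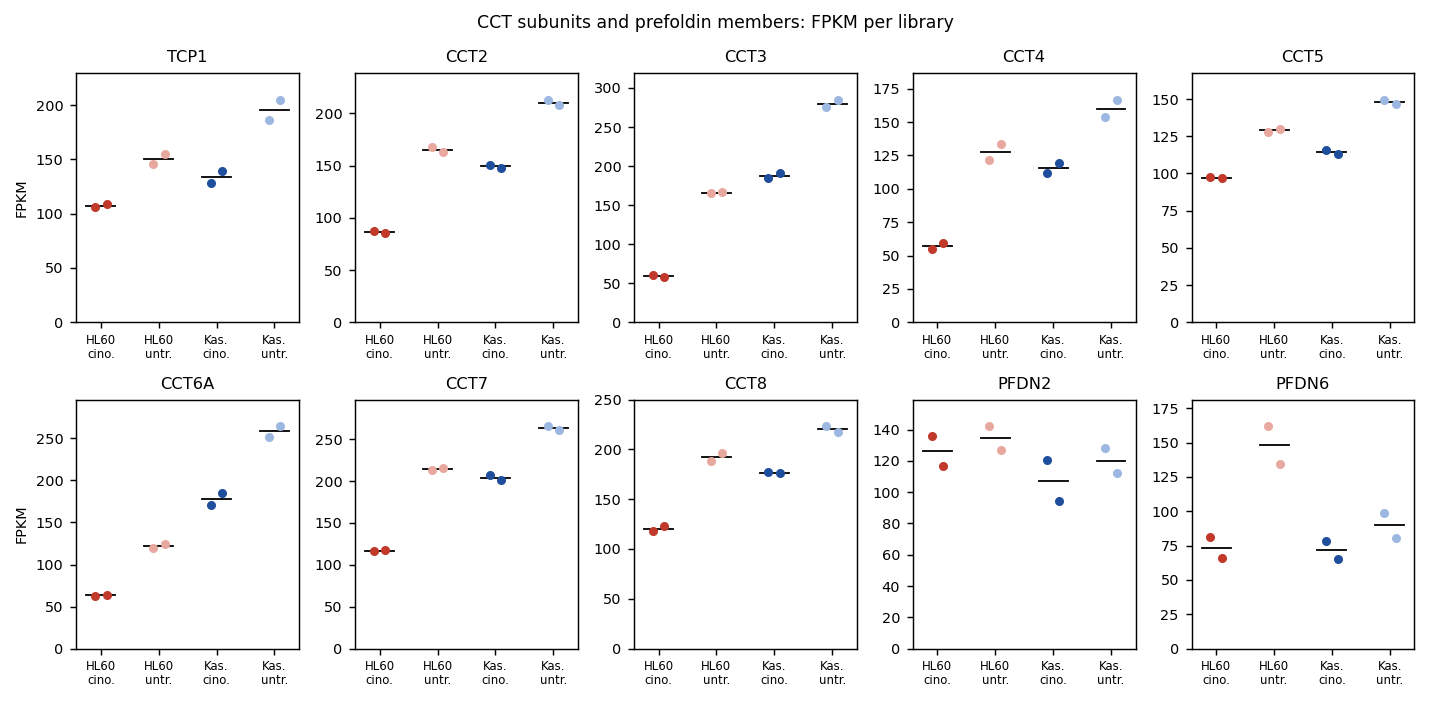
FPKM of each member in each library (points) with the group mean (line), on axes that start at 0. In each line the treated libraries lie below the untreated ones for the 8 CCT genes and PFDN6, whereas the groups overlap for PFDN2. How many of all tested genes lie apart in this way was not computed.

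CCT3, the gamma subunit, fell most. It stood at 60.2 and 57.5 FPKM in treated HL60 libraries, against 166 and 166 in untreated ones, and changed by −1.48 (SE 0.05, limma adjusted p = 9.39e-07). CCT4, the delta subunit, was next, with 55.0 and 59.3 FPKM against 121 and 133 in untreated cells (−1.14, SE 0.07, limma adjusted p = 1.66e-05). For both genes the treated libraries held at most 60.2 FPKM and the untreated ones at least 121 FPKM. CCT6A, which encodes the zeta subunit, had 62.6 and 63.7 FPKM in treated HL60 and 119 and 124 in untreated HL60 (−0.94, SE 0.06). CCT2, the beta subunit, had 87.3 and 85.7 FPKM in treated libraries and 168 and 163 in untreated ones (−0.93, SE 0.04). CCT7, the eta subunit and the CCT gene with the highest level in untreated HL60, had 116 and 117 FPKM with the drug, against 213 and 215 without (−0.87, SE 0.04). These 3 genes lost a similar share, and their 95% intervals overlapped (−1.07 to −0.80 for CCT6A, −1.03 to −0.82 for CCT2 and −0.97 to −0.77 for CCT7).

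CCT8, TCP1 and CCT5 changed less. CCT8, the theta subunit, stood at 118 and 123 FPKM in treated HL60 and at 189 and 196 in untreated HL60 (−0.67, SE 0.05, limma adjusted p = 2.27e-05). TCP1, the alpha subunit after which the complex was named, had 106 and 109 FPKM, against 146 and 155 in untreated cells (−0.48, SE 0.07, limma adjusted p = 0.000713). CCT5, the epsilon subunit, whose gene is linked to a hereditary sensory neuropathy, had 97.3 and 97.1 FPKM in treated libraries, against 128 and 130 in untreated ones (−0.40, SE 0.04, limma adjusted p = 0.000127). Treated and untreated libraries did not overlap for any CCT gene. The share of all tested genes without overlap was not computed, so nothing is read from this. The change differed little between replicate numbers, for example −1.44 and −1.52 for CCT3. The interval of CCT3 (−1.59 to −1.37) overlapped none of those of the other CCT genes, and that of CCT5 (−0.50 to −0.31) overlapped only the one of TCP1 (−0.65 to −0.31).

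The prefoldin members parted. PFDN6, a beta-type subunit, had 81.2 and 65.8 FPKM in treated HL60 libraries, against 162 and 135 in untreated ones, and changed by −1.004 (SE 0.16, limma adjusted p = 0.00123). PFDN2, another beta-type subunit, had 136 and 117 FPKM in treated libraries and 142 and 127 in untreated ones, and the groups overlapped (−0.09, 95% interval −0.43 to 0.24, limma adjusted p = 0.575). Both genes were higher in replicate 1 than in replicate 2 in all 4 groups, as were 16.1% of tested genes, while 19.04% were lower in all 4. Within replicate numbers PFDN6 changed by −0.99 and −1.02 in HL60 and PFDN2 by −0.07 and −0.12.

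Of the other 4 prefoldin genes 3 rose and 1 fell in HL60 (median 0.43). PFDN5, an alpha-type subunit also known as a MYC-binding protein, rose to 969 and 845 FPKM in treated cells, against 539 and 443 in untreated ones (0.89, SE 0.17, limma adjusted p = 0.00309). VBP1, the other alpha-type subunit, rose to 59.7 and 64.2 FPKM, against 41.9 and 44.3 (0.51, SE 0.10). PFDN1 rose to 55.5 and 48.9 FPKM, against 40.2 and 40.8 in untreated cells (0.36, SE 0.08). PFDN4 fell to 10.9 and 9.35 FPKM, against 18.4 and 12.9 (−0.57, SE 0.18, limma adjusted p = 0.0258). The call for PFDN4 was lost without untreated HL60 replicate 1 (−0.32, adjusted p = 0.121), treated replicate 1 (0.0502) or treated replicate 2 (0.13), with HL60 fitted alone (0.0748) and with no filter on low values (0.107). The summed FPKM of the 6 prefoldin genes was 1312 and 1150 in treated HL60, against 944 and 803 in untreated HL60. PFDN5 held most of that sum, 73.7% ± 0.276 with the drug and 56.2% ± 1.37 without (SD, n = 2 each), and PFDN6 held 5.96% ± 0.332 and 16.96% ± 0.274.

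**Figure D2:**
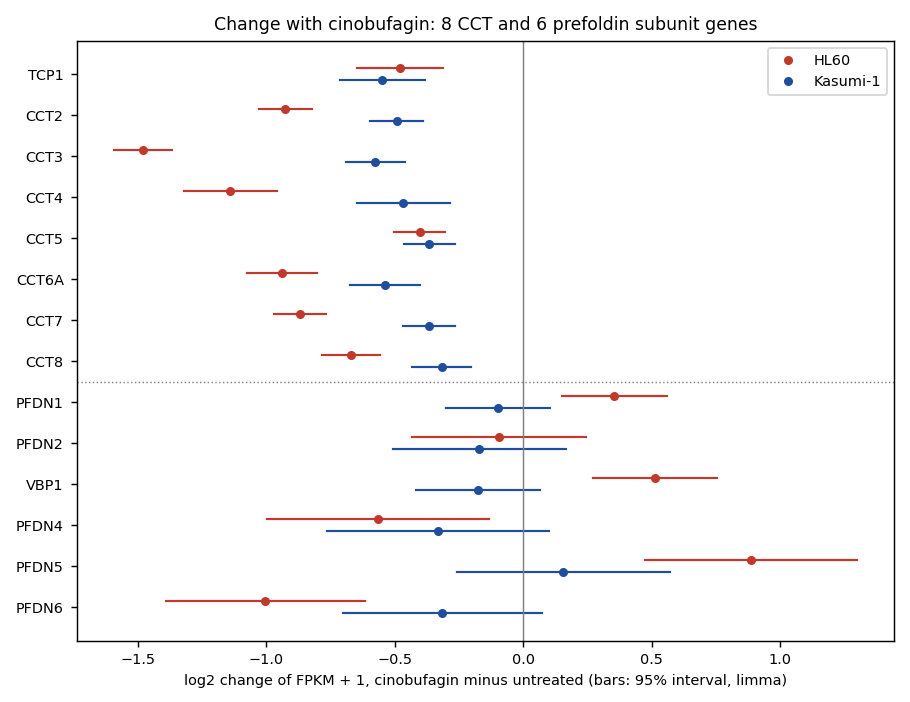
Log2 change of FPKM + 1 with cinobufagin (points) and its 95% interval from limma (bars) for the 8 CCT and 6 prefoldin genes, in HL60 (red) and Kasumi-1 (blue). All CCT points lie left of 0 in both lines, and in HL60 the prefoldin points lie on either side, from −1.004 for PFDN6 to 0.89 for PFDN5.

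In Kasumi-1 the same 8 CCT genes fell, by less. Their median log2 change was −0.48, between −0.58 for CCT3 and −0.32 for CCT8, against −0.04 over all genes tested. Neither prefoldin member was called in this fit, which has no replicate block. The 8 falls and 0 rises among 10 members stand beside 16.2% of tested genes called lower and 10.1% called higher. Of all calls in this line 38.5% were rises, a share that became 52.5% after median-ratio rescaling, under which the 8 CCT genes were still called lower. The summed CCT FPKM was 1245 and 1273 in treated Kasumi-1, against 1719 and 1753 in untreated Kasumi-1, a fall of the mean by 27.5%.

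CCT3 had 184 and 191 FPKM in treated Kasumi-1 libraries, against 275 and 285 in untreated ones (−0.58, SE 0.05, limma adjusted p = 0.00157). TCP1 had 128 and 139 FPKM with the drug and 187 and 205 without (−0.55, SE 0.07, limma adjusted p = 0.00373). CCT6A had 171 and 185 FPKM in treated cells, against 252 and 265 in untreated cells (−0.54, SE 0.06, limma adjusted p = 0.00249). In each of these 3 genes every treated library lay below every untreated one. CCT2 stood at 150 and 148 FPKM, against 213 and 208 without drug (−0.49, SE 0.04). CCT4 stood at 112 and 119 FPKM in treated libraries and at 154 and 167 in untreated ones (−0.47, SE 0.07). CCT7 and CCT5 both changed by −0.37 (SE 0.04 for each). CCT7 had 207 and 201 FPKM, against 265 and 261 in untreated Kasumi-1, and CCT5 had 116 and 113, against 149 and 147. CCT8 changed least, with 177 and 176 FPKM in treated libraries and 223 and 217 in untreated ones (−0.32, SE 0.05, limma adjusted p = 0.00605). Treated and untreated libraries overlapped for none of the 8. As in HL60, nothing is read from this, since the share over all tested genes was not computed.

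PFDN6 had 78.5 and 65.4 FPKM in treated Kasumi-1, against 99.1 and 80.6 in untreated Kasumi-1, without overlap (−0.32, 95% interval −0.70 to 0.07, limma adjusted p = 0.2). With the replicate number as a block within each line, PFDN6 was called lower there (limma adjusted p = 0.0046). PFDN2 had 121 and 94.1 FPKM with the drug and 128 and 112 without, with overlapping groups (−0.17, 95% interval −0.51 to 0.17, limma adjusted p = 0.422). Within replicate numbers PFDN6 changed by −0.33 and −0.30, and PFDN2 by −0.09 and −0.25. Without the block, none of PFDN1, VBP1, PFDN4 and PFDN5 was called in Kasumi-1 (−0.10, −0.18, −0.33 and 0.16, limma adjusted p between 0.222 and 0.551). The summed FPKM of the 6 prefoldin genes was 807 and 666 in treated libraries, against 803 and 665 in untreated ones.

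The change itself differed between the lines for 7 of the 10 members, all less negative in Kasumi-1 (change in Kasumi-1 minus change in HL60), beside 30.1% of tested genes called higher and 33.1% called lower in this contrast. The difference was 0.90 for CCT3 (SE 0.07, limma adjusted p = 6.93e-05), 0.67 for CCT4 (SE 0.11), 0.50 for CCT7 (SE 0.06), 0.43 for CCT2 (SE 0.06), 0.40 for CCT6A (SE 0.08) and 0.35 for CCT8 (SE 0.07). PFDN6 differed by 0.69 (SE 0.23, limma adjusted p = 0.0355). That call was lost without replicate 1 of untreated HL60, replicate 2 of treated HL60, replicate 2 of untreated Kasumi-1 or replicate 1 of treated Kasumi-1 (adjusted p between 0.103 and 0.112) and with no filter on low values (0.134). For TCP1 and CCT5 the lines were not told apart, with differences of −0.07 (95% interval −0.30 to 0.17, limma adjusted p = 0.572) and 0.04 (−0.10 to 0.18, limma adjusted p = 0.594). PFDN2 was not called either (−0.08, 95% interval −0.55 to 0.40).

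Before treatment, all 8 CCT genes were higher in Kasumi-1 than in HL60, by 0.34 on the log2 scale at the median (0.01 over all genes), beside 35.9% of tested genes called higher and 33.8% called lower. The largest difference was in CCT6A, at 258 ± 8.73 FPKM in untreated Kasumi-1 and 122 ± 3.53 in untreated HL60 (SD, n = 2 each; 1.08, SE 0.06, limma adjusted p = 5.93e-06). CCT3 followed, at 280 ± 6.68 and 166 ± 0.634 FPKM (0.75, SE 0.05, limma adjusted p = 1.41e-05). The other 6 differed by 0.19 to 0.38. The smallest difference, that of CCT8 (limma adjusted p = 0.00937), was not called without replicate 1 of untreated HL60 (0.062) or of untreated Kasumi-1 (0.0521). PFDN6 went the other way, at 89.9 ± 13 FPKM in untreated Kasumi-1 and 148 ± 19.3 in untreated HL60 (−0.72, SE 0.16, limma adjusted p = 0.00662), and PFDN2 was not called (−0.16, 95% interval −0.50 to 0.18).

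The make-up of the CCT transcript pool shifted in HL60. CCT3 held 8.32% ± 0.361 of the summed CCT FPKM in treated HL60 and 13.1% ± 0.197 in untreated HL60 (SD, n = 2 here and below). TCP1 held 15.2% ± 0.174 with the drug and 11.9% ± 0.28 without, and CCT5 13.7% ± 0.166 and 10.2% ± 0.0943. In Kasumi-1 CCT3 was at 14.9% ± 0.127 in treated and 16.1% ± 0.158 of the sum in untreated cells. The gene with the highest level in untreated HL60 was CCT7 and that with the lowest was CCT6A, in both libraries. In untreated Kasumi-1 CCT3 was highest and CCT5 lowest, in both libraries, and CCT6A held 14.9% ± 0.293 of the sum there, against 9.63% ± 0.0975 in untreated HL60. Within a library the highest CCT gene was 2.14 ± 0.00177 times the lowest in treated HL60 and 1.76 ± 0.0377 times in untreated HL60, against 1.81 ± 0.0537 times in treated and 1.89 ± 0.0716 times in untreated Kasumi-1.

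**Figure D3:**
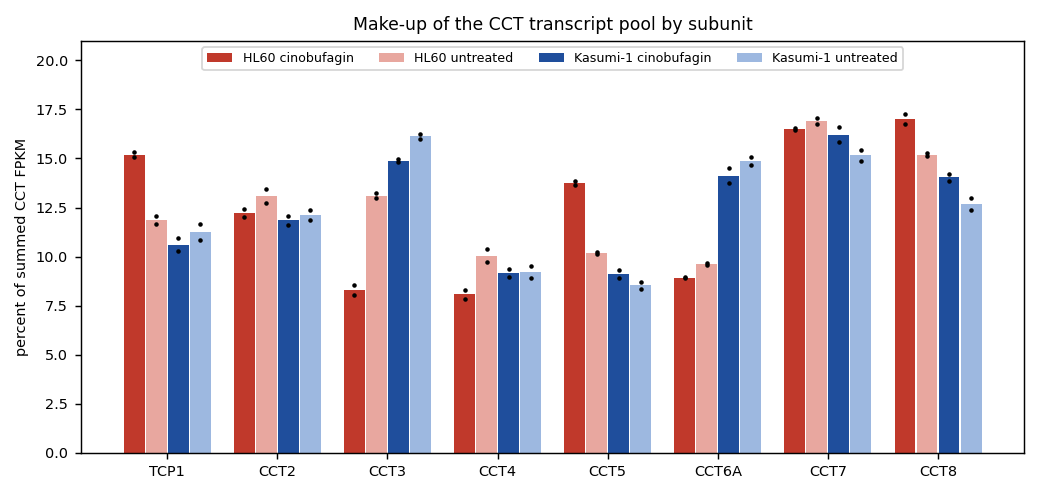
Share of each subunit gene in the summed FPKM of the 8 CCT genes, by group (bars: mean of 2 libraries, points: libraries). In HL60 the CCT3 bar is lower with cinobufagin (8.32% against 13.1%) and those of TCP1, CCT5 and CCT8 are higher.

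The CCT genes had a common pattern over the 8 libraries. Pearson's r of each with the mean standardised level of the other 7 was between 0.93, for CCT6A, and 0.99, for CCT2, whereas it was 0.35 for PFDN6 and −0.13 for PFDN2 with the mean of the 8. The points are 8 libraries in 4 groups, so these values describe the shared effects of line and drug and have no test. Other tested genes that reach 5 FPKM in a group were ranked by their likeness to this pattern. Symbols that begin with LOC or LINC, those of small RNAs and repeated symbols were left out. The 6 closest were THOC5, of mRNA export, USP36, a nucleolar deubiquitinase, HSP90AB1, the constitutive cytosolic HSP90, FAM35A, RHOU and HSP90AB3P (r between 0.994 and 0.995). HSP90AB3P is a pseudogene of the HSP90AB1 family, and the 2 rows may share reads. HSP90AB1 stood at 160 and 158 FPKM in treated HL60, against 637 and 637 in untreated HL60, and at 609 and 606 in treated Kasumi-1, against 1109 and 1108 in untreated Kasumi-1.

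Genes that neighbour the members moved with some of them and not with others, and this differed by line. TCP1 lies head to head with MRPL18, a mitochondrial ribosomal protein gene, which was not called in HL60 (99.0 and 92.2 FPKM with the drug, 100 and 86.6 without). In Kasumi-1 MRPL18 was called lower like TCP1 (−0.37, limma adjusted p = 0.0474), a call lost without any 1 of the 8 libraries (adjusted p up to 0.189). CCT6A lies head to head with PSPH, of serine synthesis, which rose in HL60 (18.1 and 18.8 FPKM, against 8.78 and 8.72 in untreated HL60, log2 change 0.99). In Kasumi-1 PSPH was called lower like CCT6A (−0.28, limma adjusted p = 0.0175), a call lost without untreated Kasumi-1 replicate 2 (0.0824), treated replicate 1 (0.0597) or treated replicate 2 (0.072). CCT7 lies head to head with PRADC1, which fell in HL60 (−0.62) and in Kasumi-1 stood at 29.9 and 27.9 FPKM in treated cells and 23.8 and 22.2 in untreated cells (0.32, limma adjusted p = 0.0851). PFDN6 overlaps WDR46, of ribosome assembly, which fell in HL60 by 1.21 and in Kasumi-1 by 0.65, and RGL2, which rose in HL60 (0.76). CCT4 and COMMD1, a copper metabolism gene, fell together in HL60 (−1.14 and −0.52), as did CCT5 and FAM173B (−0.40 and −0.47). In Kasumi-1 FAM173B was called lower too (−0.43, limma adjusted p = 0.0153), but not without untreated Kasumi-1 replicate 2 (0.0675) or treated replicate 1 (0.0723). NIT1, beside PFDN2, was not called in either line without a replicate block (−0.22 in HL60 and 0.28 in Kasumi-1). The end of TCP1 overlaps ACAT2, of sterol and fatty acid metabolism, on the opposite strand. ACAT2 fell by 2.05 in HL60 and by 0.69 in Kasumi-1, and since the strand setting of the quantification is not given in the sources used here, reads of the pair cannot be told apart with certainty. The same holds for CCT4 with COMMD1, PFDN2 with NIT1 and PFDN6 with WDR46 and RGL2. It also holds for CCT3 with TSACC, listed as C1orf182, whose row held at most 1.13 FPKM in any library. The CCT6A pseudogenes CCT6P1 and CCT6P3 could share reads with CCT6A, but their rows held only 4.34 to 8.10 FPKM in all 8 libraries.

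The testis-type subunit gene CCT6B was near 0 in HL60 (0.225 and 0.0687 FPKM treated, 0.502 and 0.628 untreated) and stood between 0.897 and 2.09 FPKM in Kasumi-1, and CCT8L2 was listed at 0 in all 8 libraries. Of the 5 genes of CCT-like and tissue-restricted paralogs 3 were tested, and 1 fell in HL60 (median −0.45), MKKS, linked to a ciliopathy, at −0.63. None was called in Kasumi-1 (median −0.20). These counts stand beside 37.6% of all tested genes called lower in HL60 and 16.2% in Kasumi-1, and nothing particular to the paralogs is read from them.

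Counts of the lists that follow stand beside 37.6% of tested genes called lower and 36% called higher in HL60, and 16.2% and 10.1% in Kasumi-1. With 2 to 15 tested genes a list, nothing particular to a list is read from them. Of 4 phosducin-like cofactors, which dock on CCT, 3 were tested. PDCL3 fell in HL60 to 10.6 and 9.31 FPKM, against 30.6 and 26.4 in untreated cells (−1.43, SE 0.10, limma adjusted p = 1.97e-05). PDCL, which helps CCT assemble G protein beta subunits, rose there by 0.36, and TXNDC9 had −0.27 in Kasumi-1 (limma adjusted p = 0.0424) and 0.14 in HL60. The TXNDC9 call in Kasumi-1 was lost without any of the 4 Kasumi-1 libraries (adjusted p between 0.0857 and 0.162) or either treated HL60 library. The list's medians were 0.14 in HL60 and −0.27 in Kasumi-1. In the list of prefoldin-like proteins and the R2TP complex, which assembles large machines together with HSP90, 5 of 9 fell and 2 rose in HL60 (median −0.32), and 3 fell and 0 rose in Kasumi-1 (median −0.18). RUVBL1, an ATPase of R2TP, fell to 10.4 and 10.5 FPKM in treated HL60, against 63.4 and 56.1 in untreated HL60 (−2.41, SE 0.08), and its partner RUVBL2 fell to 39.6 and 43.1, against 143 and 149 (−1.80, SE 0.06). URI1, a prefoldin-like protein listed under its older symbol C19orf2, fell by 1.49, and PDRG1, another, rose by 0.98. In Kasumi-1 RUVBL1 fell by 0.58 and C19orf2 by 0.51, and RUVBL2 had −0.23 (limma adjusted p = 0.0271), a call lost without any of the 4 Kasumi-1 libraries (adjusted p between 0.0737 and 0.116).

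Tubulin folding cofactors, which take tubulin over from CCT, fell in 4 of 7 cases and rose in 1 in HL60 (median −0.28), and fell in 4 and rose in 0 in Kasumi-1 (median −0.31). ARL2, a small GTPase that regulates them, had 19.2 and 17.3 FPKM in treated HL60, against 68.4 and 61.4 in untreated HL60 (−1.77, SE 0.08), and −0.31 in Kasumi-1. TBCD had −1.32 in HL60 and −0.48 in Kasumi-1, TBCB −1.07 and −0.42, and TBCC 0.33 and 0.17. The calls of ARL2 and TBCB in Kasumi-1 were each lost without any of the 4 Kasumi-1 libraries (limma adjusted p between 0.0686 and 0.187), that of TBCB also without either treated HL60 library. The call of TBCC in HL60 was lost without either untreated HL60 library or treated replicate 1 (up to 0.108).

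Of 15 cytoskeletal clients 5 fell and 7 rose in HL60 (median 0.18), and 1 fell and 1 rose in Kasumi-1 (median −0.05), in HL60 close to the shares over all genes (37.6% lower and 36% higher). ACTB, beta-actin, was not called in HL60 (2019 and 2242 FPKM with the drug, 1795 and 1958 without, 0.18, limma adjusted p = 0.161). That result depended on the processing, since quantile normalization called ACTB higher there (0.87, limma adjusted p = 0.00226), as did a replicate block. The main tubulin genes TUBA1B and TUBB fell there by 0.55 and 0.65, with TUBB at 475 and 490 FPKM, against 740 and 772 in untreated HL60. TUBB2C, the older symbol of TUBB4B, rose by 0.89, and TUBB2A, TUBB2B and TUBB3 rose by 0.93, 0.81 and 0.79 from low levels. Actin and tubulin genes have near-identical copies that share reads, above all TUBB2A and TUBB2B, so their single values are uncertain. Of 13 other clients 2 fell and 9 rose in HL60 (median 0.60), and 1 fell and 1 rose in Kasumi-1 (median 0.00). The Kasumi-1 calls were MLST8 (−0.22) and PLK1 (0.27), each lost without any 1 of the 4 Kasumi-1 libraries (limma adjusted p between 0.0524 and 0.0653 for MLST8 and between 0.0552 and 0.107 for PLK1). PLK1 and CDC20, of mitosis, rose by 1.61 and 1.14 in HL60, STAT3, a transcription factor, rose by 1.55, and MLST8, a subunit of mTOR complexes, fell by 0.79.

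**Figure D4:**
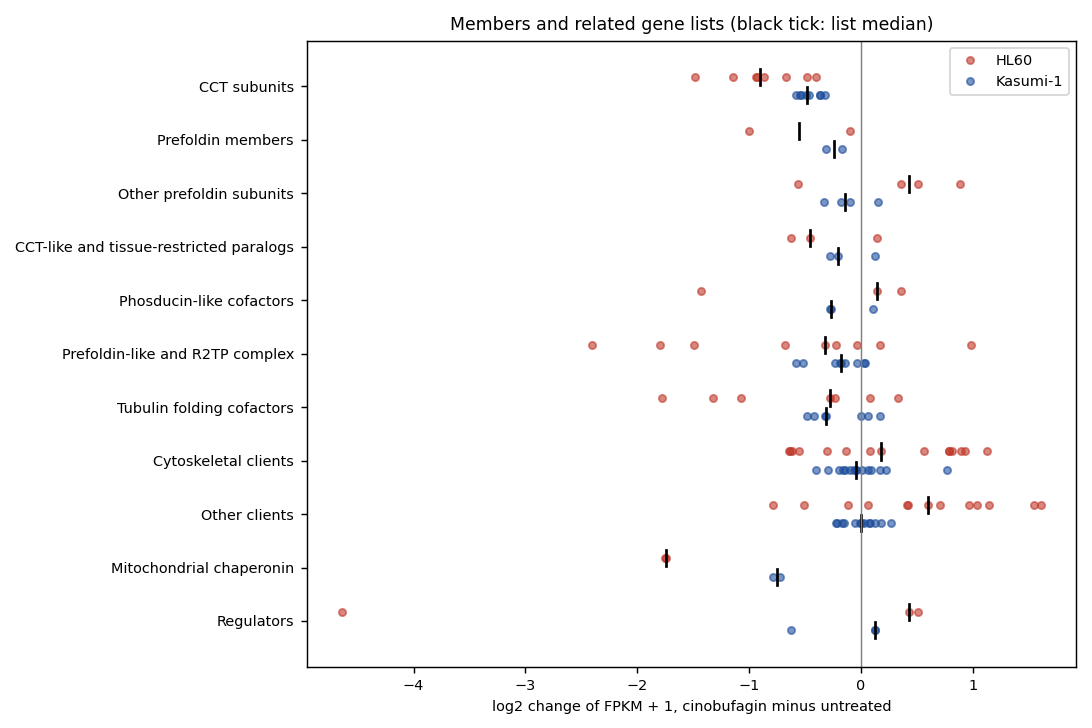
Log2 change of FPKM + 1 with cinobufagin for each tested gene (points) of the members and related lists, with the list median (black tick), in HL60 (red) and Kasumi-1 (blue). The CCT and mitochondrial chaperonin points all lie left of 0, while cofactors and clients lie on both sides.

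Both genes of the mitochondrial chaperonin fell in both lines. HSPD1, which encodes HSP60, stood at 113 and 120 FPKM with the drug, against 384 and 404 without (−1.75, SE 0.06), and HSPE1, its lid protein HSP10, at 77.3 and 62.7, against 256 and 215 (−1.74, SE 0.17). In Kasumi-1 HSPD1 fell by 0.72 and HSPE1 by 0.78. The HSPE1 call there was lost without untreated Kasumi-1 replicate 1 (limma adjusted p = 0.0854) or treated replicate 2 (0.0795). Of 3 regulators HSF1, the heat shock factor that activates chaperone genes, rose in HL60 (47.5 and 50.1 FPKM, against 35.4 and 36.7 in untreated HL60, log2 change 0.43) and was not called in Kasumi-1 without a replicate block (0.13, limma adjusted p = 0.16). HSF2 rose by 0.51 in HL60 and had 0.13 in Kasumi-1. MYC stood at 30.3 and 29.2 FPKM in treated HL60, against 786 and 749 in untreated HL60 (−4.64), and at 199 and 202 in treated Kasumi-1, against 308 and 310 in untreated Kasumi-1 (−0.62). The part of MYC or HSF1 in the CCT changes was not tested.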

How the data were processed

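Per the labels' protocols, mRNA libraries were made with a stranded TruSeq kit for 8 samples. The authors deposited FPKM values for 25593 genes, with a column per library. Cufflinks 2.2.1, HISAT2 2.1.0, bcl2fastq 2.20.0 and build hg19 are named, per the submitters' processing notes. The annotation, strand setting and number of reads were not given in the sources used here. Relative depth, from the most frequent ratio of values under 0.3 FPKM, lay between 0.785 and 1.06. Depth in reads is unknown, so no interval for counting error is given. From the FPKM, log2(FPKM + 1) was fitted with limma 3.58.1 in R 4.3.3, with 1 mean per group, 4 residual degrees of freedom and an intensity trend, for 12511 genes with at least 1 FPKM in at least 2 libraries. Contrasts were cinobufagin minus untreated in each line, the difference between these changes, and untreated Kasumi-1 minus untreated HL60, each with Benjamini-Hochberg adjustment over all genes. The fit was tested on simulated data with independent noise in each library. Shared deviations of same-numbered libraries were not simulated, so that test does not cover them. A permutation of 2 against 2 libraries is too small to use. Members and lists were chosen with earlier results of these data known. All members are named, and up to 4 called genes per list, by smallest adjusted p, plus MYC, HSF1, HSPD1, HSPE1, ACTB, TUBB and TUBA1B. HSF2 and FPKM of uncalled paralogs were added after their values were seen. Neighbours are genes that overlap a member or start within 1000 bases of its start on the other strand in GENCODE 29, used for names and order only. Of 10 members, 6 had a RefSeq window within 300 bases of the gene's outer start. Windows of CCT5 and PFDN6 start 616 and 400 bases inside the gene and were not used.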

Additional observations from a re-analysis of the deposited data

Results flagged for a closer look

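Only members, and genes of the related lists and neighbours that are named above, are listed here. Among them the change with cinobufagin differed between Kasumi-1 and HL60 for the following genes. The call is by limma's test of the difference (adjusted p under 0.05), and values are log2 change in Kasumi-1 minus that in HL60. Some list genes that are not named were called too. Calls of this difference were recomputed under other settings for members only, so those of all other genes here were not rechecked. Among members these were CCT2 (0.43), CCT3 (0.90), CCT4 (0.67), CCT6A (0.40), CCT7 (0.50), CCT8 (0.35) and PFDN6 (0.69). Of the other prefoldin genes PFDN1 (−0.45), VBP1 (−0.69) and PFDN5 (−0.73) lay below 0. The paralog MKKS had 0.43. Named cofactors with a difference above 0 were PDCL3 (1.15), C19orf2 (0.97), RUVBL1 (1.83), RUVBL2 (1.56), TBCB (0.65), TBCD (0.84) and ARL2 (1.46). TXNDC9 (−0.41) and PDRG1 (−1.17) lay below 0.

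Named clients above 0 were TUBA1B (0.39), TUBB (0.45) and MLST8 (0.57). Those below 0 were ACTB (−0.48), TUBB2A (−0.84), TUBB2B (−0.75), TUBB3 (−0.85), TUBB2C (−0.72), CDC20 (−1.02), PLK1 (−1.34) and STAT3 (−1.47). Over the full lists, 7 of 15 cytoskeletal clients were called below 0 and 5 above. Of 13 other clients 9 were called below 0 and 1 above. These counts stand beside 33.1% of all tested genes below 0 and 30.1% above. HSPD1 (1.03), HSPE1 (0.96) and MYC (4.02) fell less in Kasumi-1, and HSF1 (−0.30) and HSF2 (−0.39) lay below 0. Neighbours of members on the list were ACAT2 (1.36), PRADC1 (0.93), WDR46 (0.56), PSPH (−1.27) and RGL2 (−0.87).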

How the results depend on the processing

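Of 660 recomputed member values 640 kept their direction and side of the threshold. For named related and neighbouring genes 1253 of 1390 did. The latter cover the changes within each line and not the difference between lines. Many settings leave the log2 change itself as it was, such as another filter, no intensity trend or a replicate block. For a change within a line, so does leaving out a library of the other line. In those settings only the adjusted p could move, so the counts say little about direction. The 8 CCT genes were called lower in both lines under every alternative. Their median in HL60 was −0.82 after median-ratio rescaling and −1.005 after quantile normalization. In Kasumi-1 it was −0.42 after median-ratio rescaling and lay between −0.50 and −0.44 when a library was left out. Changes of sign concerned uncalled values. PFDN2 lay between −0.20 and 0.013 in HL60 and between −0.35 and 0.0072 in Kasumi-1 when a library was left out. Its difference between lines lay between −0.25 and 0.10 when a library was left out and was 0.062 after quantile normalization, as that of TCP1 was 0.095. Quantile normalization called CCT5 different between lines (0.18, adjusted p = 0.0381). It also called ACTB higher in HL60 (0.87, limma adjusted p = 0.00226). MRPL18 in HL60 was −0.046 after quantile normalization and lay between −0.070 and 0.14 when a library was left out. Likewise PFDN5 in Kasumi-1 lay between −0.017 and 0.33, and PDCL there between −0.013 and 0.23. The cause was not tested.

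With the replicate number as a block within each line, PFDN6 was called lower in Kasumi-1 (limma adjusted p = 0.0046), as were PFDN4 (0.0362), VBP1 (0.0269), MKKS (0.0457), PDCL3 (0.00812), PDRG1 (0.0369), ACTB (0.00548), TUBB (0.0104), TUBA1B (0.0172) and COMMD1 (0.0399). PFDN5 (0.0253), TUBB2C (0.0342), HSF1 (0.043), PRADC1 (0.017) and NIT1 (0.0389) were called higher there. In HL60 it called ACTB higher (0.00407) and NIT1 lower (0.0385). A block over all libraries, chosen after seeing the data, also called PFDN2 lower in Kasumi-1 (limma adjusted p = 0.0487). It called PFDN2 lower in untreated Kasumi-1 against untreated HL60 as well (0.0298), which made 2 members lower there. CDC20 was called higher in Kasumi-1 by that block (0.0372), median-ratio rescaling (0.0485) and quantile normalization (0.0278). Median-ratio rescaling also called TUBB2C higher in Kasumi-1 (0.0362) and TXNDC9 higher in HL60 (0.0306). TUBA1B was called lower in Kasumi-1 after quantile normalization (0.0363). TUBB was too (0.0493), and also with the filter at 5 FPKM (0.0426) or no intensity trend (0.0489). Same-numbered libraries deviated together (r between 0.125 and 0.331 across genes for 6 pairs of groups), but the labels do not say that a number marks a shared batch. Kasumi-1 calls of TXNDC9, RUVBL2, ARL2, TBCB, PLK1, MLST8, HSPE1, MRPL18, FAM173B and PSPH were each lost under several alternatives, with adjusted p up to 0.189, as was that of TBCC in HL60 (up to 0.108). With each line fitted alone, 642 genes were called lower and 398 higher in Kasumi-1, against 2026 and 1266. Depth is unknown beyond relative values, which limits low genes such as CCT6B.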
